A study of Homo sapiens with 12 samples.

Results

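The 9 cyclins that drive the cell cycle were followed here at the level of their messenger RNA: CCNA2, CCNB1, CCNB2, CCND1, CCND2, CCND3, CCNE1, CCNE2 and CCNF. They were taken by gene symbol from the count table, which holds 57704 endogenous genes, and all 9 were found and passed the filter on low counts. The cells were HEK293, an established human embryonic kidney line, stably carrying a reporter built from an endogenous intronic sequence and DARP-EGFP. Cells of both groups carried it. In 1 group a pool of siRNAs against SUPT4H1 was transfected (100 nM) and in the other scrambled siRNAs, and RNA was taken 72 hours later. Both groups have 6 libraries, 1 from each of 6 side-by-side transfections, all begun from a single culture. The p-values therefore measure how transfections of that culture vary. Lysates of 1000000 cells received ERCC RNA standards, which came as mix 1 for scrambled and as mix 2 for SUPT4H1 siRNA. The 3′ end of polyadenylated RNA was sequenced, so a count stands for an RNA end and levels were not divided by gene length.

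Most cyclins are regulatory subunits of cyclin-dependent kinases (CDKs), and many are made and destroyed at set stages of the division cycle. D-type cyclins respond to growth signals in G1 and pair with CDK4 and CDK6, which phosphorylate the retinoblastoma protein RB1. E-type cyclins pair with CDK2 at entry into S phase, cyclin A2 pairs with CDK2 and then CDK1 through S phase and G2, and B-type cyclins drive mitosis with CDK1. Cyclin F binds no CDK and serves as the substrate receptor of an SCF ubiquitin ligase. HEK293 cells contain adenoviral E1A, which binds RB1.

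The scrambled libraries held 7337033 to 20269171 endogenous counts and the SUPT4H1 libraries 6591194 to 11366971. SUPT4H1 itself, which encodes a subunit of the elongation factor DSIF, fell from 184 ± 9.11 to 20.8 ± 1.63 counts per 1000000 counts (CPM; SD, n = 6 each), with every SUPT4H1 library below every scrambled one. SUPT4H1 siRNA replicate 6 stood apart from its group on the second component of a principal component analysis (21.4, against −11.8 to −3.66 in the other 5). Results that rest on it are also given without it or as a range over leaving out each library. Scrambled siRNA replicate 4 and SUPT4H1 siRNA replicate 5 had the lowest share of ERCC counts in their groups, 0.574% and 0.793%. All 5 HEK293 markers searched for were detected, at a summed 1224 to 1762 CPM with scrambled siRNA and 923 to 1089 CPM with SUPT4H1 siRNA, most of it NEFL. Of 10 markers of other cell types 4 had no count (PTPRC, CDH5, KRT5 and MYH7) and the 10 summed to 5.58 to 9.91 and 5.35 to 10.6 CPM. In mean CPM over all libraries LIN28B was at 43.7. NEFM (1.34), PAX2 (1.29) and EYA1 (3.54) lay below COL1A1 (5.47), a marker of other cell types.

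Relative to all mRNA, 5 of the 9 cyclins fell with SUPT4H1 siRNA (CCNA2, CCNB1, CCNB2, CCND2 and CCNE2), 2 rose (CCND1 and CCNE1) and 2 did not pass the test (CCND3 and CCNF). Calls are by edgeR's quasi-likelihood test, at a Benjamini-Hochberg adjusted p under 0.05 among 13811 genes. Over all genes tested 20.2% fell and 20% rose, 40.2% in either direction. The median relative log2 fold change of the cyclins was −0.22, beside −0.0015 over all genes. No overlap between the groups was seen for CCNA2, CCNB1, CCNB2, CCND2 and CCNE2 (scrambled higher) and for CCND1 (SUPT4H1 higher), which is 6 of 9, while 20.4% of all genes did not overlap, 10.2% with scrambled and 10.2% with SUPT4H1 siRNA higher. All these shares cover genes of every level past the filter, and no share over genes as abundant as the cyclins was computed. With scrambled siRNA 67.6% of genes lay below CCNE1 in level and 46.3% below CCNE2, the 2 lowest cyclins. In such bulk samples, fewer cells at a stage of the cycle and less RNA per cell cannot be told apart.

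**Figure D1:**
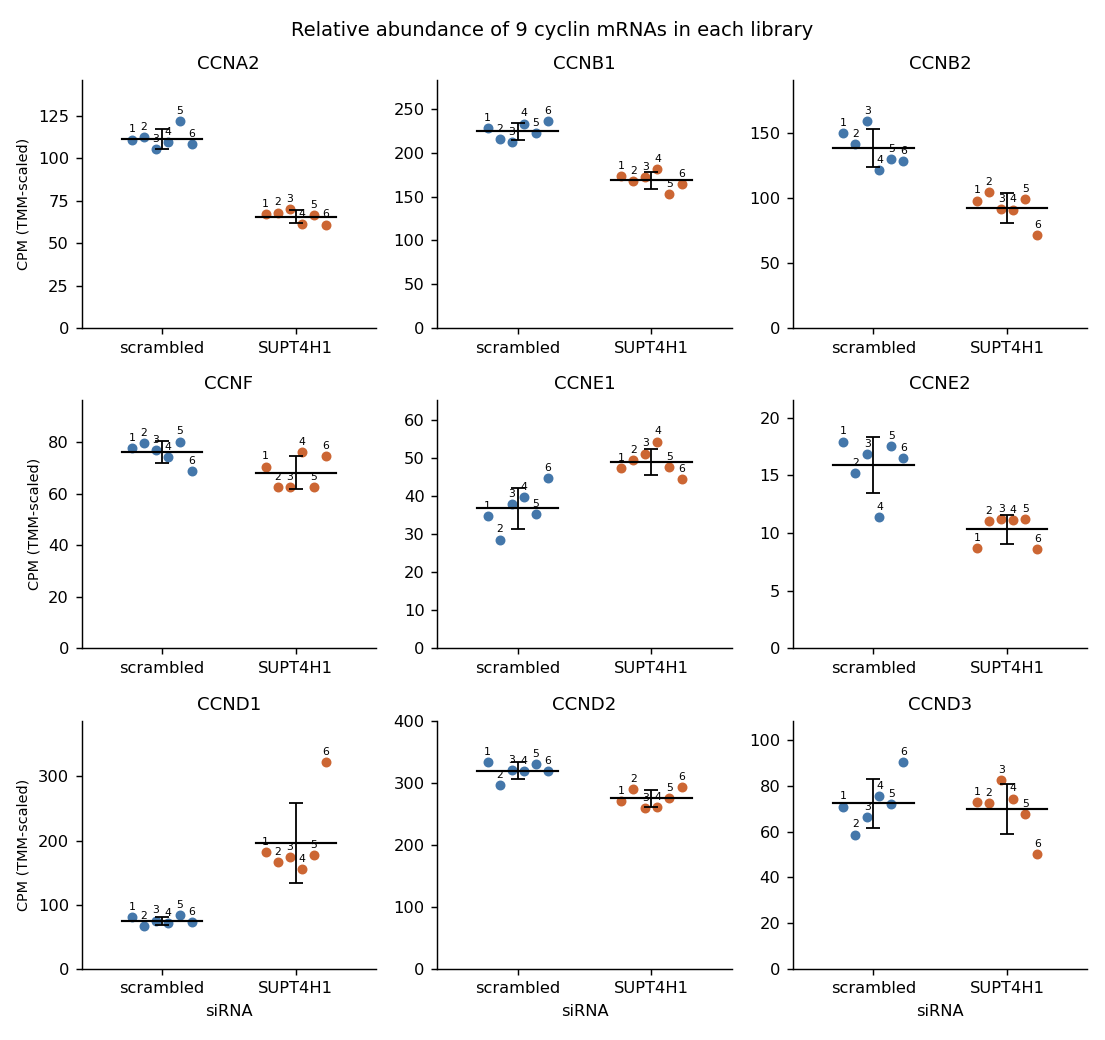
TMM-scaled CPM of each cyclin (y axes, each from 0) in the 6 libraries of each siRNA group (x axis). Points are libraries numbered by replicate, and bars are the mean ± SD. The 6 SUPT4H1 libraries lie below all scrambled libraries for CCNA2 and above them for CCND1, where replicate 6 is at 323 CPM.

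With scrambled siRNA, CCND2 was the most abundant cyclin at 320 ± 13.4 CPM (SD, n = 6 for this and the following values), followed by CCNB1 at 225 ± 9.57, CCNB2 at 139 ± 14.3 and CCNA2 at 111 ± 5.66 CPM. CCNF (76.3 ± 4.23), CCND1 (75.0 ± 6.11) and CCND3 (72.4 ± 10.6 CPM) had overlapping ranges, as had CCNB2 and CCNA2. CCNE1 (36.8 ± 5.40) and CCNE2 (15.9 ± 2.40 CPM) were the lowest and lay apart from each other. With SUPT4H1 siRNA, CCND1 moved from rank 6 to rank 2 and CCNA2 from rank 4 to rank 7. There, the ranges of CCND2, CCND1 and CCNB1 formed an overlapping series, and so did those of CCNB2, CCND3, CCNF and CCNA2. CCNE1 and CCNE2 remained at ranks 8 and 9.

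CCNA2, the cyclin of S phase and G2, had the largest relative fall among the 9. Its lowest, median and highest values were 105, 110 and 122 CPM with scrambled siRNA and 60.8, 66.8 and 70.2 CPM with SUPT4H1 siRNA. The groups lay well apart. In relative terms its log2 fold change came to −0.76 (SE 0.069, edgeR adjusted p = 3.8e-08), and 4.77% of all genes tested had a lower one. CCNA2 (ENSG00000145386) lies on chromosome 4 from 121816444 to 121823933 (GRCh38, minus strand), where its 3′ end overlaps that of EXOSC9 on the opposite strand by 578 bases. EXOSC9 was at 69.8 ± 3.38 and 70.8 ± 3.57 CPM (log2 fold change 0.020, adjusted p = 0.843), and the strand setting of the counting is not given in the sources used here.

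CCNB1, the main mitotic partner of CDK1, ran from 212 through a median of 225 to 236 CPM with scrambled siRNA and from 153 through 170 to 182 CPM with SUPT4H1 siRNA. The 2 ranges did not touch, and the relative log2 fold change was −0.41 (SE 0.066, adjusted p = 4.67e-05). CCNB2, a B-type cyclin found at the Golgi apparatus, ran from 122 through 136 to 159 CPM and from 71.4 through 94.9 to 105 CPM. Its log2 fold change was −0.58 (SE 0.090, adjusted p = 3.45e-05), and SUPT4H1 siRNA replicate 6 was its lowest library. CCNB1 (ENSG00000134057) lies on chromosome 5 from 69167010 to 69178245 and CCNB2 (ENSG00000157456) on chromosome 15 from 59105078 to 59125045, both on the plus strand. The fall of CCNA2 was larger than that of CCNB1: the ratio of CCNA2 to CCNB1 counts within a library was 0.458 to 0.548 with scrambled siRNA and 0.337 to 0.435 with SUPT4H1 siRNA (log2 difference −0.35). An exact permutation test, two-sided like all that follow, gave p = 0.00216, or 0.00289 adjusted over 12 ratios. CCNB1 and CCNB2 could not be told apart in this way, with a log2 difference of 0.17 in their ratio (exact permutation p = 0.182, adjusted p = 0.182).

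CCNF ran from 68.8 through 77.4 to 80.3 CPM with scrambled siRNA and from 62.6 through 66.6 to 76.3 CPM with SUPT4H1 siRNA. The groups overlapped, and the relative log2 fold change of −0.16 (95% interval −0.32 to −0.0047, edgeR adjusted p = 0.0935) did not pass the test. Without SUPT4H1 siRNA replicate 6 it was −0.19 and passed (adjusted p = 0.0408). The ratio of CCNF to CCNB1 counts rose with SUPT4H1 siRNA, from a range of 0.291 to 0.369 to one of 0.364 to 0.454 (log2 difference 0.25, exact permutation p = 0.00433, adjusted p = 0.00519). The 2 ranges overlapped at their edges. CCNF (ENSG00000162063) lies on chromosome 16 from 2429394 to 2458854 on the plus strand. Among the genes that overlap it on the opposite strand, AC106820.3 fell, from 2.71 ± 0.437 to 1.28 ± 0.342 CPM (log2 −1.08, adjusted p = 0.000891).

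Promoters of cyclins A2, B1 and B2 are textbook examples of cell cycle genes that are held silent through a cell cycle homology region (CHR) bound by MuvB complexes and activated through CCAAT boxes bound by NF-Y. They are shown because these 3 genes fell together, beside the promoter of CCNE1, which rose in relative abundance. The windows run from 250 bases before to 50 bases after the RefSeq transcription start (GRCh38.p14), at chr4:121823834-121824133 (minus strand) for CCNA2, chr5:69166900-69167199 (plus) for CCNB1, chr15:59104896-59105195 (plus) for CCNB2 and chr19:29811741-29812040 (plus) for CCNE1. Capitals mark each match, on either strand, to CCAAT, to the CHR (TTTGAA or TTCGAA or TTTAAA or CTTGAA), to the cyclic AMP response element TGACGTCA or to an E2F form (TTTCCCGC or TTTGGCGC or TTTCGCGC or TTTGCCGC, none found). In CCNA2 a CHR form directly abuts the response element. Other forms of E2F sites were not searched for and would be unmarked.
CCNA2: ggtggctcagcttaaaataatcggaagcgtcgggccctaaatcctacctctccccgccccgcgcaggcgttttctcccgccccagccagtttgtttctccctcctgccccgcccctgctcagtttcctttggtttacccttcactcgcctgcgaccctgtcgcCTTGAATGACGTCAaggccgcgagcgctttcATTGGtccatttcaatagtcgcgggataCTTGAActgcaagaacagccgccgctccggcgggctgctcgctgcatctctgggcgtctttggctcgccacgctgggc
CCNB1: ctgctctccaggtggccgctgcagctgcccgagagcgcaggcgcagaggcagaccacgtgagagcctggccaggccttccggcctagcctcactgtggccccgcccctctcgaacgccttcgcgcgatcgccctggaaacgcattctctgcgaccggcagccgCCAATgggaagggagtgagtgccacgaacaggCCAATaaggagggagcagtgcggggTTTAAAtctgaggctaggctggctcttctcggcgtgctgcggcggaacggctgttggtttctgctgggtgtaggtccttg
CCNB2: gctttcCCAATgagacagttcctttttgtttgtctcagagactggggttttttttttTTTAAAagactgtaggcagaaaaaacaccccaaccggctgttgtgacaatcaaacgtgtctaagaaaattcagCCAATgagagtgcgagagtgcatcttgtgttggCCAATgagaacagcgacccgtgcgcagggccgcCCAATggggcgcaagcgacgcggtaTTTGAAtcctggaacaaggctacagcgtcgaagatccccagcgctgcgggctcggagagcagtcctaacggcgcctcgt
CCNE1: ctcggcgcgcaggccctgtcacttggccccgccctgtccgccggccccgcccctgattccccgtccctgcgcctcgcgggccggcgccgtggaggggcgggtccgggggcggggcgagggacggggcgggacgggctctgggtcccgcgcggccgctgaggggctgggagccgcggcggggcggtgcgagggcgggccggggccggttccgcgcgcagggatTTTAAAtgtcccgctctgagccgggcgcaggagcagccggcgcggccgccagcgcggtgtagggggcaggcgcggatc

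In these windows a CHR form started 28 bases before the transcription start in CCNA2 (CTTGAA), 30 in CCNB1 (TTTAAA) and 29 in CCNB2 (TTTGAA). Upstream of it, in either orientation, a CCAAT box started at a distance of 28 bases in CCNA2 and of 25 bases in CCNB1 and CCNB2. CCNE1 had TTTAAA at 28 bases before the start and no CCAAT. CCNF, whose relative change did not pass the test, held 4 CCAAT boxes and 2 CHR forms, of which TTTGAA lay 85 bases before its start with a CCAAT box 21 bases upstream. In the 3 promoter windows of CCND3 no CHR form was found. Promoters of CCND1, CCND2 and CCNE2 were not analysed here. CCAAT occurs in 34.6% of 35116 promoters of the same length, a CHR form in 32.2%, TGACGTCA in 1.85% and an E2F form in 3.31%. A CCAAT box starting 20 to 30 bases upstream of a CHR form, a spacing chosen after these 4 cyclins had been read, occurs in 0.857%. Of the 86 tested genes with such a promoter, the 4 cyclins included, 30 fell (34.9%) and 7 rose (8.14%), and their median relative change was −0.16 (log2). Among all 9707 tested genes with a RefSeq promoter, 1960 fell (20.2%) and 21.1% rose, with a median of 0.0084. CCNA2, CCNB1 and CCNB2, which were shown because they fell and from which the spacing was taken, are among the 30. The 2 sets of shares are therefore a description and no test of the arrangement. A match is a run of letters and not a measured binding site, and a part of such sites in these changes was not tested.

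In relative abundance the E-type cyclins moved in opposite directions. Scaled to the ERCC standards, the log2 changes were −0.41 for CCNE1 (edgeR adjusted p = 0.241, not passed) and −1.39 for CCNE2. CCNE1 ran from 28.6 through a median of 36.6 to 44.7 CPM with scrambled siRNA and from 44.5 through 48.5 to 54.3 CPM with SUPT4H1 siRNA, so that the ranges met at a single pair of libraries. Its relative log2 fold change was 0.42 (SE 0.10, edgeR adjusted p = 0.00165). CCNE2 ran from 11.4 through 16.7 to 17.9 CPM and from 8.63 through 11.1 to 11.2 CPM, a log2 fold change of −0.63 (SE 0.13, adjusted p = 0.000426). The ratio of CCNE1 to CCNE2 counts was 1.88 to 3.48 with scrambled siRNA and 4.25 to 5.44 with SUPT4H1 siRNA. It was 2.06-fold higher in the SUPT4H1 group (exact permutation p = 0.00216, the smallest that 6 against 6 libraries allow, adjusted p = 0.00289). CCNE1 made up 69.7% ± 4.83 and 82.7% ± 1.32 of E-type counts (SD, n = 6 each).

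CCNE1 (ENSG00000105173) lies on chromosome 19 from 29811898 to 29824308 on the plus strand, with no overlapping gene in GENCODE release 29. CCNE2 (ENSG00000175305) lies on chromosome 8 from 94879770 to 94896678 on the minus strand, and its 3′ end overlaps that of INTS8 on the opposite strand by 1977 bases. INTS8 was at 14.3 ± 2.58 and 14.7 ± 3.43 CPM (adjusted p = 0.93). At 59 to 127 counts per library in the SUPT4H1 group and 84 to 312 in the scrambled group, CCNE2 was the least deeply counted of the 9.

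CCND1, the D-type cyclin best known as a target of growth signalling and as an oncogene, had the largest change in relative abundance among the 9. Its lowest, median and highest values were 67.0, 73.8 and 83.2 CPM with scrambled siRNA and 155, 176 and 323 CPM with SUPT4H1 siRNA. All SUPT4H1 libraries lay above all scrambled ones, and replicate 6, at 323 CPM, lay far above the other 5, at 155 to 181 CPM. In relative terms the log2 fold change came to 1.38 (SE 0.15, edgeR adjusted p = 4.53e-06), or 2.61-fold, and 1.19 (adjusted p = 2.67e-12) without replicate 6. Of all genes tested 99.4% had a lower one. CCND1 (ENSG00000110092) lies on chromosome 11 from 69641087 to 69654474 on the plus strand, and its 3′ end overlaps that of LTO1 on the opposite strand by 1399 bases. LTO1 was at 19.97 ± 3.65 and 20.8 ± 2.62 CPM, a log2 fold change of 0.047 (adjusted p = 0.789).

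CCND2, the most abundant cyclin in both groups, ran from 296 through a median of 320 to 333 CPM with scrambled siRNA and from 260 through 272 to 293 CPM with SUPT4H1 siRNA. The ranges came close without overlapping, and the log2 fold change was −0.22 (SE 0.066, edgeR adjusted p = 0.0113). Without a filter on low counts it was −0.22 with an adjusted p of 0.0559. CCND3 ran from 58.7 through 71.5 to 90.5 CPM and from 50.2 through 72.6 to 82.5 CPM, with wide overlap. Its log2 fold change was −0.044 (95% interval −0.27 to 0.18, adjusted p = 0.778). CCND2 (ENSG00000118971) lies on chromosome 12 from 4273772 to 4305350 (plus strand) and CCND3 (ENSG00000112576) on chromosome 6 from 41934933 to 42050357 (minus strand).

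The make-up of the D-type pool therefore differed between the groups. CCND1 accounted for 16.0% ± 0.793 of D-type counts with scrambled siRNA and for 35.7% ± 6.40 with SUPT4H1 siRNA, while CCND2 went from 68.5% ± 1.35 to 51.1% ± 3.81 and CCND3 from 15.5% ± 1.79 to 13.2% ± 2.99 (SD, n = 6 each). The ratio of CCND1 to CCND2 was 2.95-fold higher with SUPT4H1 siRNA and that of CCND1 to CCND3 2.63-fold higher (exact permutation p = 0.00216 and adjusted p = 0.00289 for each). Without SUPT4H1 siRNA replicate 6 the log2 differences were 1.43 and 1.15, beside 1.56 and 1.39 with it. CCND1 counts were 0.305 to 0.374 of CCNB1 counts with scrambled siRNA and 0.854 to 1.96 with SUPT4H1 siRNA, a 3.38-fold difference with the same p-values.

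**Figure D2:**
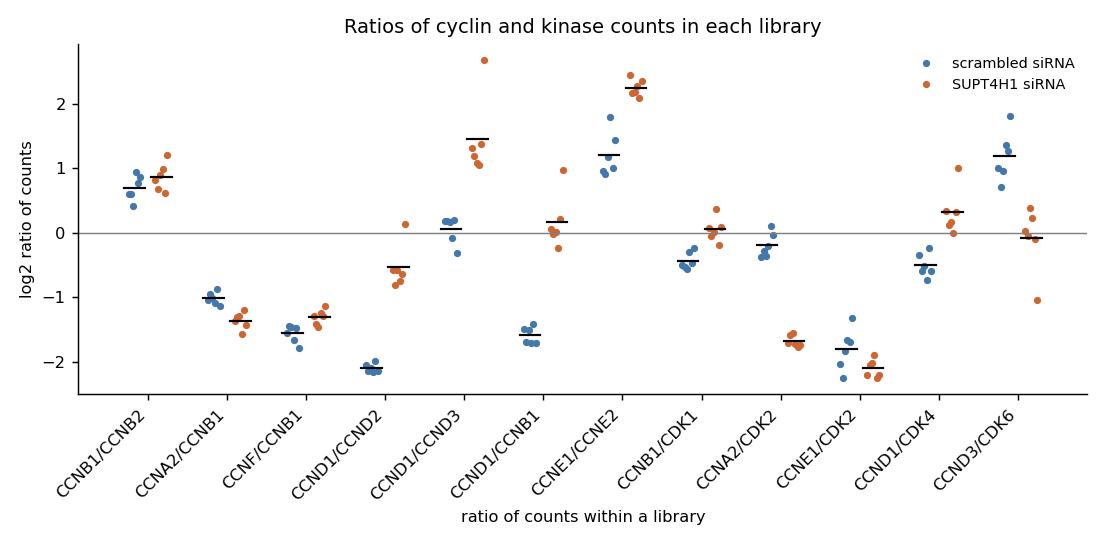
Log2 ratio of the counts of 2 genes within a library (y axis) for the 12 ratios examined (x axis), in 6 scrambled (blue) and 6 SUPT4H1 (orange) libraries. Points are libraries and black lines are group means. CCND1 over CCND2 and CCNA2 over CDK2 separate the groups fully, CCNB1 over CCNB2 does not.

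Ratios within a library do not depend on the scaling, and 10 of 12 differed between the groups. The 12 were chosen with earlier results of these data known. No share over other pairs of genes was computed, so this count has no background beside it. Against their kinases, cyclins shifted in both directions. CDK1 fell more than CCNB1. It was at 303 ± 16.7 CPM with scrambled and at 162 ± 13.1 CPM with SUPT4H1 siRNA (log2 −0.90, edgeR adjusted p = 7.54e-09), and the ratio of CCNB1 to CDK1 counts rose from a range of 0.678 to 0.848 to one of 0.878 to 1.30 (log2 difference 0.48). In relative abundance CDK2, the kinase of S phase, rose from 127 ± 12.9 to 210 ± 9.63 CPM (log2 0.72, adjusted p = 2.38e-07). Scaled to the ERCC standards present at the same amount in both mixes (the spike-in scale), its change of −0.072 (adjusted p = 0.84) did not pass. CCNA2 counts were 0.775 to 1.07 of CDK2 counts with scrambled siRNA and 0.294 to 0.340 with SUPT4H1 siRNA, a 2.81-fold lower ratio. The ratio of CCNE1 to CDK2 did not pass the test (log2 difference −0.30, exact permutation p = 0.0649, adjusted p = 0.0708). It passed without scrambled siRNA replicate 1 (−0.35, exact permutation test, adjusted p = 0.0472) and without scrambled siRNA replicate 2 (−0.40, adjusted p = 0.0142).

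Both G1 kinases rose in relative abundance, and neither passed on the spike-in scale. CDK4 went from 106 ± 7.09 to 151 ± 7.85 CPM (log2 0.51, edgeR adjusted p = 6.44e-06). CDK6 went from 31.7 ± 3.92 to 74.5 ± 14.7 CPM (log2 1.23, adjusted p = 5.74e-08), with SUPT4H1 siRNA replicate 6 highest at 103 CPM. On leaving out any library the relative log2 change of CDK6 stayed between 1.12 and 1.28. Their spike-in-scaled changes were −0.33 for CDK4 (adjusted p = 0.332) and 0.43 for CDK6 (adjusted p = 0.214), and CDK4 passed, at −0.58 (adjusted p = 0.014), without SUPT4H1 siRNA replicate 5. The ratio of CCND1 to CDK4 was 1.78-fold higher and that of CCND3 to CDK6 2.42-fold lower with SUPT4H1 siRNA (log2 differences 0.83 and −1.27). Without SUPT4H1 siRNA replicate 6 the difference for CCND1 to CDK4 was 0.69. That for CCND3 to CDK6 was between −1.37 and −1.08 on leaving out any library. Each of the ratios of CCNB1 to CDK1, CCNA2 to CDK2, CCND1 to CDK4 and CCND3 to CDK6 had an exact permutation p of 0.00216 and an adjusted p of 0.00289.

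Standards added to each lysate give a level per amount of added RNA in place of a share of all mRNA. On that scale the median of all genes was shifted by −0.82 (log2), and 59% of genes fell and 0.311% rose. Of the cyclins 7 fell, 0 rose and 2 did not pass the test, CCND1 and CCNE1, with a median log2 fold change of −1.02 over the 9. All genes of a library share 1 scaling, which ties these calls together. Mix and group coincide, so a difference between the mixes in dilution and a difference between the groups cannot be told apart.

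CCNA2 had 45.1, 63.4 and 94.3 counts per 1000 counts of the subgroup B standards (lowest, median and highest library) with scrambled siRNA and 13.5, 17.4 and 41.7 with SUPT4H1 siRNA. The groups did not overlap, and relative to the standards the log2 fold change came to −1.58 (SE 0.32, edgeR adjusted p = 3.71e-05), which leaves 33.5% of the scrambled level. CCNE2 (−1.39), CCNB2 (−1.35) and CCNB1 (−1.26) also lay below the shift of all genes. CCND2 (−1.02, adjusted p = 0.00467), CCNF (−0.99, adjusted p = 0.0065) and CCND3 (−0.88, adjusted p = 0.014) lay near it. With the standards of subgroup C alone, where the shift of all genes was −0.51, these 3 no longer passed (adjusted p = 0.104, 0.122 and 0.187), and 4 cyclins fell and 1 rose. CCND3 also lost its call without scrambled siRNA replicate 4 (−0.72, adjusted p = 0.0547), and it stood at the threshold without SUPT4H1 siRNA replicate 6 (−0.78, adjusted p = 0.050).

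CCND1 ran from 32.1 through a median of 41.2 to 61.3 counts per 1000 subgroup B counts with scrambled siRNA and from 33.6 through 50.1 to 111 with SUPT4H1 siRNA. These ranges overlapped, with SUPT4H1 siRNA replicates 5 and 6 highest. Its log2 fold change on this scale was 0.56 (95% interval −0.056 to 1.18, edgeR adjusted p = 0.105), and with subgroup C alone 0.89 (adjusted p = 0.0429). CCNE1 ran from 16.2 through 19.1 to 34.1 and from 9.84 through 14.1 to 29.9, a log2 fold change of −0.41 (95% interval −1.04 to 0.22, adjusted p = 0.241). Without SUPT4H1 siRNA replicate 5, which had the lowest share of ERCC counts in its group (0.793%, against 1.48% to 2.45%), CCNE1 was at −0.68 and passed (adjusted p = 0.00621).

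**Figure D3:**
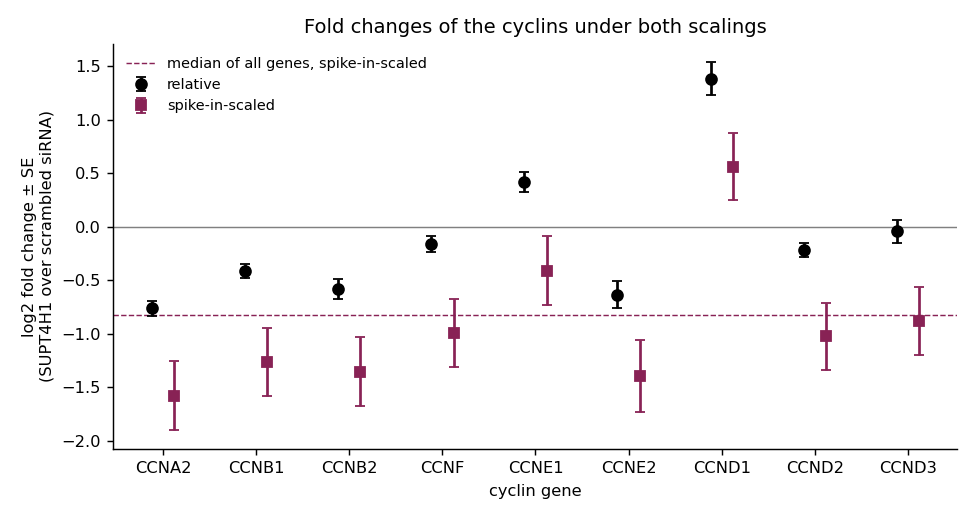
Log2 fold change ± SE (y axis, SUPT4H1 over scrambled siRNA, edgeR, 6 libraries per group) of each cyclin (x axis) in relative abundance (black circles) and scaled to ERCC subgroup B (purple squares). The dashed line is the spike-in-scaled median of all genes (−0.82). CCND1 is at 1.38 and 0.56, CCNA2 at −0.76 and −1.58.

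**Figure D4:**
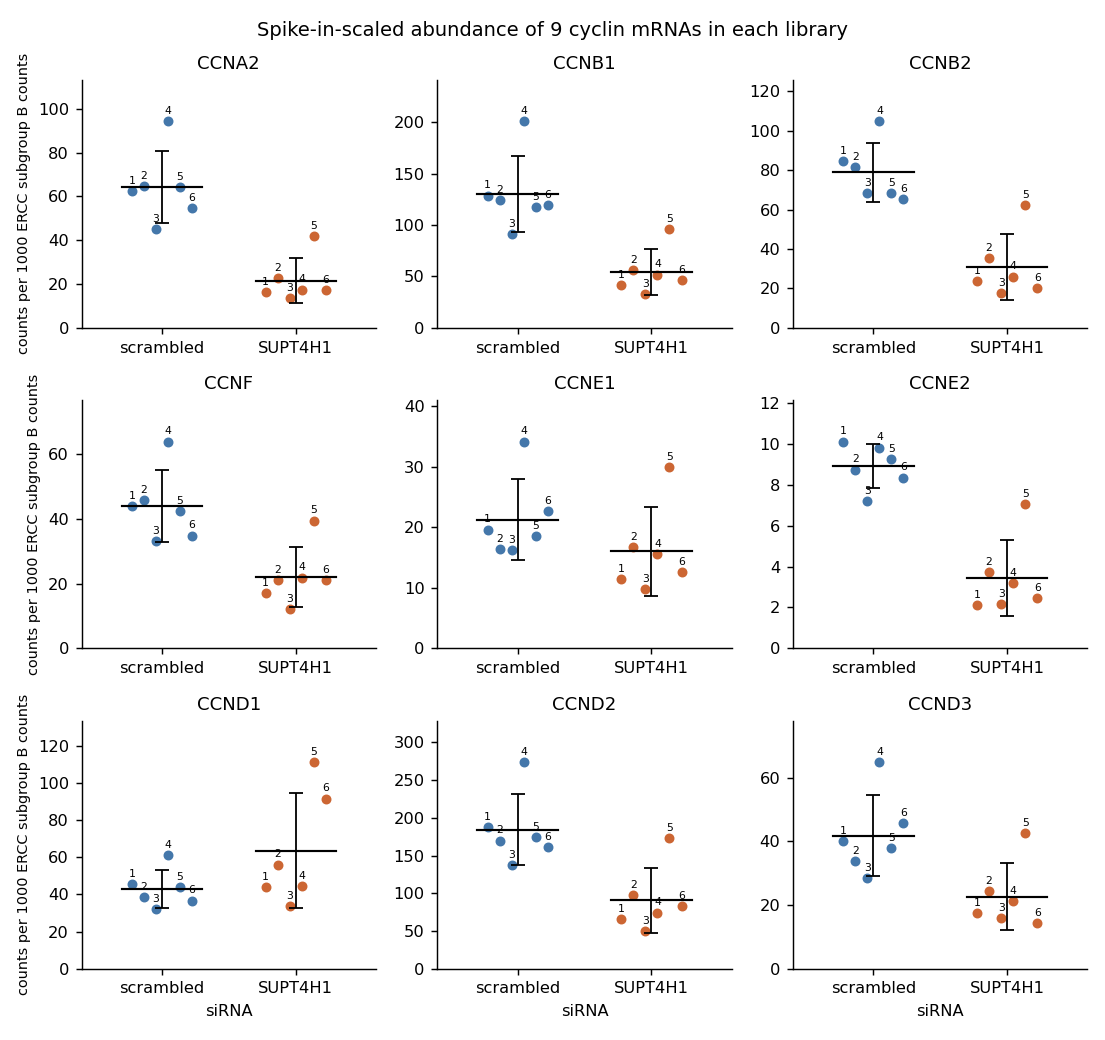
Counts of each cyclin per 1000 counts of ERCC subgroup B standards (y axes, each from 0) in the 6 libraries of each siRNA group (x axis), with libraries numbered by replicate and bars for the mean ± SD. SUPT4H1 siRNA replicate 5 is the highest of its group for all 9 cyclins, and scrambled siRNA replicate 4 for all but CCNE2.

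Genes that act on the cyclins were read from lists chosen for this purpose, and each count is to be set against the 20.2% of genes that fell and 20% that rose. Counts, medians and changes are relative unless the spike-in scale is named. There 59% of genes fell, 0.311% rose and the median shift was −0.82. Among 9 CDKs of the cycle and their partners 3 fell and 4 rose, and the median relative change was 0.078 (log2). On the spike-in scale 5 fell and 0 rose (median −0.73). Besides CDK1, CKS2, a small CDK-binding subunit (−0.80), fell, and so did CCNH, the cyclin of the CDK-activating kinase (−0.84), which was singled out after its values were seen. Of 8 CDK inhibitors 2 fell and 2 rose (median −0.047), and with spike-in scaling 6 fell and 1 rose (median −0.87). CDKN1A, the p53-induced inhibitor p21, had a lowest, median and highest value of 120, 198 and 264 CPM with scrambled siRNA and 409, 581 and 692 CPM with SUPT4H1 siRNA, with no overlap. Its log2 fold change was 1.55 (SE 0.18, edgeR adjusted p = 1.84e-05), and SUPT4H1 siRNA replicate 6, where CCND1 was highest, had its lowest value in that group. CDKN1A also rose on the spike-in scale (0.79, adjusted p = 0.0246). That call was lost without scrambled siRNA replicate 2 (0.68, adjusted p = 0.0832), scrambled siRNA replicate 6 (0.72, adjusted p = 0.0624) or SUPT4H1 siRNA replicate 5 (0.39, adjusted p = 0.0887). CDKN2D, the INK4-type inhibitor p19 of CDK4 and CDK6, fell from 125 ± 12.6 to 40.6 ± 5.48 CPM (log2 −1.63, adjusted p = 1.03e-10). CDKN1B (−0.52) fell and CDKN1C (1.01) rose.

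Of the phosphatases and kinases that switch CDKs on and off, CDC25A (−0.40), CDC25B (−0.33) and PKMYT1 (−0.38) fell and 0 of 5 rose. All 5 fell with spike-in scaling (median −1.13). Of 13 genes of the RB and E2F family, 4 fell and 3 rose (median −0.080), against 9 and 1 with spike-in scaling (median −0.89). The activator genes E2F1 (−0.75, edgeR adjusted p = 1.1e-05) and E2F2 (−0.68) fell, as did the late repressor gene E2F8 (−0.98), and RB1 rose from 35.2 ± 6.55 to 56.9 ± 10.4 CPM (log2 0.69, adjusted p = 0.000304). E2F7, the other late repressor gene, and E2F4 were looked up after their values were seen, and both rose. E2F7 ran from 3.20 through 5.00 to 6.97 CPM with scrambled siRNA and from 8.07 through 10.9 to 34.1 CPM with SUPT4H1 siRNA, with no overlap and with replicate 6 highest. Its log2 fold change was 1.52 (SE 0.35, adjusted p = 0.00414), and without that library it was 1.10 and still passed. It was the family's only gene to rise on the spike-in scale (0.75, adjusted p = 0.0463), a call lost on leaving out any of 6 libraries, down to 0.42 (adjusted p = 0.306) without SUPT4H1 siRNA replicate 6. It was also lost without the filter (adjusted p = 0.0773) and with the replicate block (0.51, adjusted p = 0.18). E2F4 had a relative change of 0.24 (adjusted p = 0.0438). Over the alternative settings 2 to 3 genes of the family rose in relative abundance. RB1 and E2F7 kept their relative calls throughout, so that of E2F4 was lost at least once.

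Of 9 tested genes for factors that act through CHR and CCAAT boxes, LIN9 (−0.47, edgeR adjusted p = 0.00382) and RBBP4 (−0.23, adjusted p = 0.0232) fell and MYBL2 (0.35, adjusted p = 0.048) rose, and the median was −0.017. With spike-in scaling 8 fell and 0 rose (median −0.83). FOXM1 was at 75.3 ± 8.07 and 75.2 ± 7.03 CPM (log2 −0.00047, adjusted p = 0.997). MYBL2 did not pass when any 1 of scrambled siRNA replicates 1, 4, 5 and 6 or SUPT4H1 siRNA replicates 1, 4 and 5 was left out (log2 0.30 to 0.37, adjusted p from 0.0598 to 0.105). Nor did it pass without the filter on low counts (0.36, adjusted p = 0.0632), with the replicate block (0.36, adjusted p = 0.0783) or with RNA integrity as a covariate (0.33, adjusted p = 0.114). RBBP4 did not pass without scrambled siRNA replicate 5 (−0.16, adjusted p = 0.0869) or SUPT4H1 siRNA replicates 3 (−0.21, adjusted p = 0.0542) or 4 (−0.21, adjusted p = 0.0547), nor with RNA integrity as a covariate (−0.23, adjusted p = 0.0554).

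**Figure D5:**
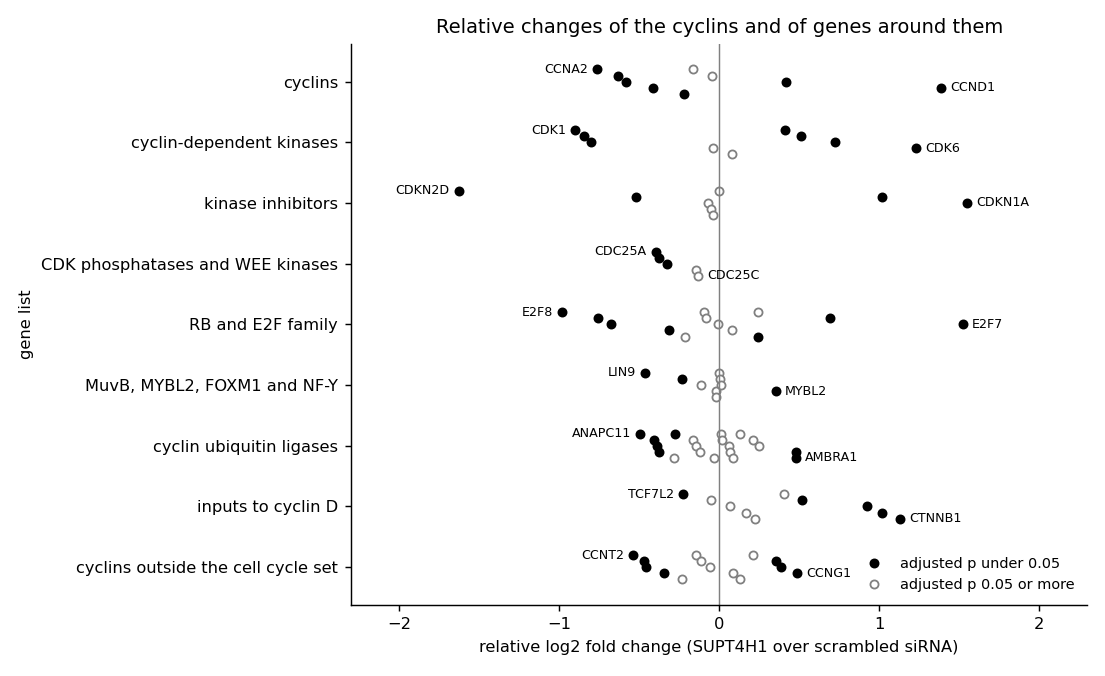
Relative log2 fold change (x axis, SUPT4H1 over scrambled siRNA) of each tested gene in the cyclins and 8 lists around them (y axis). Filled points have an edgeR adjusted p under 0.05, and the lowest and highest gene of each list is named. CDKN2D at −1.63 and CDKN1A at 1.55 are the extremes.

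Cyclin proteins are destroyed through ubiquitin ligases. Of 20 tested genes of such ligases and their partners 5 fell and 2 rose (median −0.0079), and with spike-in scaling 15 fell and 0 rose (median −0.86). SKP2, which targets CDK inhibitors (−0.39), and ANAPC11, the RING subunit of the anaphase-promoting complex (−0.49), fell. FBXW7, the receptor for cyclin E (0.48, edgeR adjusted p = 8.64e-05), and AMBRA1, the receptor for D-type cyclins (0.48, adjusted p = 0.000101), rose. Of 10 genes upstream of cyclin D, 4 rose and 1 fell in relative abundance (median 0.31), and 3 fell and 0 rose with spike-in scaling (median −0.55). CTNNB1, which encodes β-catenin, went from 136 ± 11.3 to 298 ± 28.8 CPM (log2 1.13, adjusted p = 1.54e-09). EGR1 (0.92), FOS (1.02) and the kinase gene GSK3B (0.52) rose as well in relative abundance. None of these 4 passed on the spike-in scale, where CTNNB1 was at 0.34 (adjusted p = 0.315), EGR1 at 0.12 (adjusted p = 0.739), FOS at 0.15 (adjusted p = 0.677) and GSK3B at −0.34 (adjusted p = 0.337). The gene that fell, looked up after its values were seen, was TCF7L2, which encodes a partner of β-catenin (relative log2 −0.23, adjusted p = 0.0354). That call was lost on leaving out any of 8 libraries (−0.23 to −0.18, adjusted p from 0.0517 to 0.11), without the filter (adjusted p = 0.124), with the replicate block (adjusted p = 0.0789) and with RNA integrity as a covariate (adjusted p = 0.0717). With spike-in scaling TCF7L2 was at −1.05 (adjusted p = 0.00476).

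Among 14 tested cyclins outside the cell cycle set, 4 fell and 3 rose in relative abundance (median −0.085), and 8 fell and 0 rose with spike-in scaling (median −0.88). The Mediator cyclin gene CCNC fell from 231 ± 14.4 to 167 ± 18.0 CPM (log2 −0.47, edgeR adjusted p = 8.43e-05). CCNT1 (−0.34) and CCNT2 (−0.54), the cyclins of the elongation kinase P-TEFb, fell, as did CCNO (−0.46), while CCNK (0.36), the partner of CDK12, CCNJ (0.39) and the p53 target CCNG1 (0.49) rose. CCNG1 had an adjusted p of 0.0193, and 0.0753 without a filter on low counts. Its groups overlapped: SUPT4H1 siRNA replicate 6, at 84.5 CPM, lay below all scrambled libraries (92.1 to 123 CPM). On leaving out any library the relative log2 change of CCNG1 stayed between 0.41 and 0.61. CCNO, with an adjusted p of 0.0109, did not pass with RNA integrity as a covariate (−0.33, adjusted p = 0.0723).

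Within groups, the cyclins did not vary as 1 block. After the group means were taken off, the 36 pairs of cyclins had Pearson correlations of log2(CPM + 1) over 12 libraries from −0.65 (CCNB2 and CCND1) to 0.78 (CCND3 and CCNE1). CCND3 and CCNE1 were at 0.85 without SUPT4H1 siRNA replicate 6, whereas CCNB2 and CCND1 went to 0.17. Among 6716 genes of at least 20 CPM, CCND3 was most like MRPS21 (0.98), EIF5A and EIF6 (0.97 each), and CCNE1 most like WDR6, UROS and ANAPC5 (0.91, 0.91 and 0.90). CCNA2 was most like NREP (0.89) and CCNB2 most like ASH2L (0.95). CCND1 was most like GTSE1, ANKRD17 and ITGB3BP (0.94, 0.93 and 0.93), and these came to 0.64, 0.42 and 0.13 without SUPT4H1 siRNA replicate 6. All points share their library, its depth and its scaling. Each most similar gene is also the top of a search over 6716 genes, where high values can arise by chance with 12 libraries. These values are therefore a description.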

How the data were processed

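The 12 HEK293 libraries were made with the QuantSeq FWD kit from 200 ng of RNA each, according to the labels. Values deposited by the authors are unnormalised counts of each gene, in 1 table. FastQC 0.11.5, STAR, MultiQC and R 3.4.3 are named with build GRCh38.p10 in the submitters' processing notes. Counting tool, annotation and strandedness: not given in the sources used here. Counts were tested with edgeR 4.0.16 in R 4.3.3 (robust quasi-likelihood test, all 12 libraries, no covariates, default filterByExpr filter, Benjamini-Hochberg adjustment, threshold 0.05). Scaling was by TMM for relative values and by the total of ERCC subgroup B (23 standards, the same amount in both mixes) for spike-in-scaled ones. The subgroups were written from general knowledge of the product. Adjusted p-values in the report are edgeR's unless a permutation test is named. For ratios within a library all 924 splits entered an exact permutation test, two-sided. Positions are from GENCODE release 29 and promoters from RefSeq. Promoter windows were read for 6 of 9 cyclins, and windows on chromosome 8, where CCNE2 lies, were left out for the cyclins. Such windows stayed among the 35116 promoters used as background. Scripts were tested on simulated counts. The cyclins, gene lists, ratios and tests were chosen with earlier results of these data known. The naming rule took the 9 cyclins, SUPT4H1, 9 fixed regulators, up to 4 called members of each list by adjusted p, the called cyclins outside the set and, for each cyclin of at least 20 CPM, the 3 genes with the most similar deviations. Genes whose ends overlap a cyclin are named too, and CCNH, E2F4, E2F7 and TCF7L2 were named after their values were seen. Alternatives were DESeq2 1.42.0, other size factors, no filter, a term for RNA integrity, a replicate block, other standards, an added count in the ratios and leaving out each library. Libraries within a group, compared in 30 pairs, differed by more than sampling noise (chi-square over its degrees of freedom, 6.38 to 62.2). Library depth limits the precision for the lowest cyclins.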

Additional observations from a re-analysis of the deposited data

Results flagged for a closer look

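Dixon's ratio was computed for 60 sets of 6 values: 9 cyclins on both scales and 12 ratios, each in both groups. Its 95% critical value was passed in 15 sets, and about 3 are expected by chance. All 15 come from 3 libraries. CCND1 in SUPT4H1 siRNA replicate 6 was at 323 CPM, against 155 to 181 in the other 5. In the same library the log2 ratio of CCND1 to CCND2 was 0.14 (others −0.80 to −0.57), to CCND3 2.69 (1.06 to 1.38), to CCNB1 0.97 (−0.23 to 0.21) and to CDK4 1.01 (−0.0075 to 0.35), and that of CCND3 to CDK6 was −1.04 (−0.090 to 0.39).

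The other 9 are on the spike-in scale, in counts per 1000 subgroup B counts. SUPT4H1 siRNA replicate 5 stood above its group for CCNA2 (41.7, others up to 22.9), CCNB1 (96.0, up to 56.4), CCND3 (42.6, up to 24.4), CCNE1 (29.9, up to 16.7), CCNE2 (7.05, up to 3.71) and CCNF (39.4, up to 21.8). Scrambled siRNA replicate 4 stood above its group for CCNB1 (201, others up to 129), CCND2 (274, up to 188) and CCNE1 (34.1, up to 22.6). These sets share the library's standards and are not independent.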

How the results depend on the processing

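All genes called down on the spike-in scale numbered 8152, and 2232 with subgroup C alone, where 69 rose in place of 43; without SUPT4H1 siRNA replicate 5 they numbered 12320. Over all alternatives, 148 of 153 relative values of the cyclins, 137 of 144 spike-in-scaled values and 166 of 168 ratio values kept their direction and their side of the threshold. The count of fallen cyclins in relative abundance was between 4 and 6, and 2 rose in every setting. With subgroup C of the standards alone, the spike-in-scaled counts were 4 fallen and 1 risen in place of 7 and 0, and on leaving out a library 6 to 8 fell and 0 rose. The value of CCND3, near 0, turned to 0.015 with RNA integrity as a covariate and to between −0.099 and 0.040 on leaving out a library. That of FOXM1, also near 0, was 0.00585 with DESeq2-type size factors, 0.0062 with DESeq2, 0.0047 without the filter, 0.0016 with the replicate block and −0.046 to 0.038 on leaving out a library, and the cause was not tested. The spike-in-scaled value of CDK2, near 0 too, turned to 0.0065 with all 4 subgroups of standards, to 0.24 with subgroup C alone and to between −0.40 and 0.070 on leaving out a library. The replicate numbers share only a number: deviations of same-numbered libraries correlated between −0.48 and 0.15, and 0 of 6 scrambled libraries correlated best with their own number. With the replicate number as a block the counts were 5 fallen and 2 risen in relative abundance, 7 fallen and 0 risen with spike-in scaling, and 10 ratios. Depth limits CCNE2 most, at 59 counts in its lowest library.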
